A study of Mus musculus with 6 samples.

Results

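The genes of potassium channels were examined in pancreatic islets of mice that carry a transgene for the microRNA miR-203 in their beta cells. The members were all genes annotated as protein-coding whose symbol starts with Kcn, together with Abcc8 and Abcc9, which encode the regulatory subunits of ATP-sensitive potassium (KATP) channels. There were 88 such genes among the 47643 genes of the deposited count tables. Messenger RNA was sequenced from islets of 2 genotypes, with 3 libraries each. The transgene of the TG mice is described as beta-cell-specific. The labels name neither its promoter nor the strain, and do not say whether the TG libraries come from 1 founder line. WT mice are labelled wild type, with no allele named. Both genotypes are labelled male, were 10 weeks old and had been fasted for 12 h. TG 1, TG 2, WT 1 and WT 2 were deposited in 1 table (the first) and TG 3 and WT 3 in another (the second). Nothing in the labels ties each library to its own animal, so p-values measure only the spread between these libraries, which exceeded sampling noise and may in part be technical. Values of a genotype are always listed in the order of its libraries 1, 2 and 3.

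Potassium channels set how easily a beta cell fires. At rest, KATP channels, built from Kir6.2 (Kcnj11) and the sulfonylurea receptor SUR1 (Abcc8), hold the membrane at a negative voltage; when glucose is metabolised, ATP closes them, calcium enters and insulin is released. Voltage-gated (Kv) and calcium-activated channels then end each action potential, and tandem-pore-domain (K2P) and inwardly rectifying channels set the background conductance.

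Total counts per library were 27110459, 27482339 and 21615905 in the TG libraries and 20176456, 24631199 and 21136559 in the WT libraries. The Mir203 gene had 170, 164 and 150 counts in the TG libraries and 39, 0 and 0 in the WT libraries, so that WT 1 was the only WT library with reads there. Sex-linked transcripts followed the table and not the label, so a difference between the tables cannot be told apart from 1 of sex. Xist, which female cells express, had 12, 8 and 27240 counts in the TG libraries and 13, 4 and 25145 in the WT libraries, and 4 Y-linked genes summed to 5810, 7468 and 1 counts in TG against 5463, 5583 and 16 in WT. The 9 beta-cell markers had reads in every library, but some were low, as Ucn3 at 3.02 CPM in TG 1 and 4.72 CPM in TG 3. Their summed level was 56254, 223826 and 54478 CPM in the TG libraries, against 237726, 230166 and 116595 CPM in the WT libraries. Ins2 alone made up 23273, 149307 and 27188 CPM of this sum in TG and 156097, 167918 and 79192 CPM in WT. TG 2 thus lay close to the WT libraries of its table in this sum, and TG 1 and TG 3 lay below all WT libraries. CPM here are a gene's reads relative to the library size, which was adjusted by the trimmed mean of M-values (TMM).

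The mature miR-203 strand is shown first, because its seed, bases 2 to 8 from the 5′ end, is the stretch by which a microRNA pairs with messenger RNA. It lies at chr12:112130927-112130948 on the plus strand (RefSeq, GRCm38.p6); capitals mark the seed.
mmu-miR-203-3p: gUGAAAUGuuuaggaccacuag
The DNA letters that pair with this seed are CATTTCA. They were searched in the longest annotated 3′ untranslated region (UTR) of each gene (GENCODE M21, GRCm38), on the transcript strand only, without knowledge of which transcript ends islets use. At least 1 match was present in 11 of 62 members that passed the low-count filter (17.7%), and in 17.2% of 13840 genes tested that had a UTR sequence. The median UTR length was 1766.5 bases in the members and 1167.5 bases in all these genes, and the density was 0.114 and 0.132 matches per kb.

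Of the 11 members with a match, 5 had a lower and 6 a higher fitted level in TG than in WT. Their median log2 difference was 0.02, and that of the 51 members without a match was 0.38; over all genes these medians were -0.02 with and -0.00 without a match. A match is a description of letters, not a site or a cause. Windows of 30 bases from 3 members are given because these members have the clearest values in both directions or are main channels of the beta cell; they were chosen after their values were seen. Capitals mark the match, with the following A where there is 1. The Kcnh1 window (chr1:192506122-192506151, plus strand) holds a match that begins at base 7 of the UTR. The Kcna2 window is at chr3:107109438-107109467 on the plus strand, and the third of the Kcnma1 matches at chr14:23292780-23292809 on the minus strand.
Kcnh1: gaggatCATTTCAAaacacacaaacaaaca
Kcna2: tttccttgctcgtggCATTTCActtactct
Kcnma1: tgaccagaactgcaaCATTTCAAacataaa
Between TG and WT, these 3 genes had fitted log2 differences of -1.03 for Kcnh1, 1.87 for Kcna2 and -0.13 for Kcnma1, so genes with a match lay on both sides of 0.

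Levels of different members are compared here as FPKM, the authors' reads relative to gene length and library size, which were normalized separately in the 2 tables. Over the 6 libraries, 9 members had a mean of at least 10 FPKM, 36 had at least 1 FPKM, and 25 had under 0.1 FPKM. Abcc8 led with a mean of 232 FPKM, which was 225 ± 113 FPKM in TG and 239.9 ± 104 FPKM in WT (SD, n = 3 each). Next came Kcnk16, which encodes the pancreatic K2P channel TALK-1, with a mean of 232 FPKM, and 306 ± 139 FPKM in TG and 158 ± 10.7 FPKM in WT. The order of these 2 genes does not exceed their spread. Kcnj11 followed at 83.2 FPKM, then the ether-a-go-go related genes Kcnh6 at 33.9 FPKM and Kcnh2 at 28 FPKM. Kcnmb2, Kcnk1 and Kcnip1 had mean levels of 25.7, 25.6 and 17.7 FPKM, and Kcnk12 had 10.5 FPKM. Neighbours from Kcnh6 to Kcnip1 in this order overlapped in their libraries, as the plot of levels per length shows. The lengths used by the authors for Kcnk16 and Kcnj11 were 879 and 1173 bases, so their FPKM are per base of a short gene model and may not be on the same footing as those of genes counted over long UTRs.

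**Figure D1:**
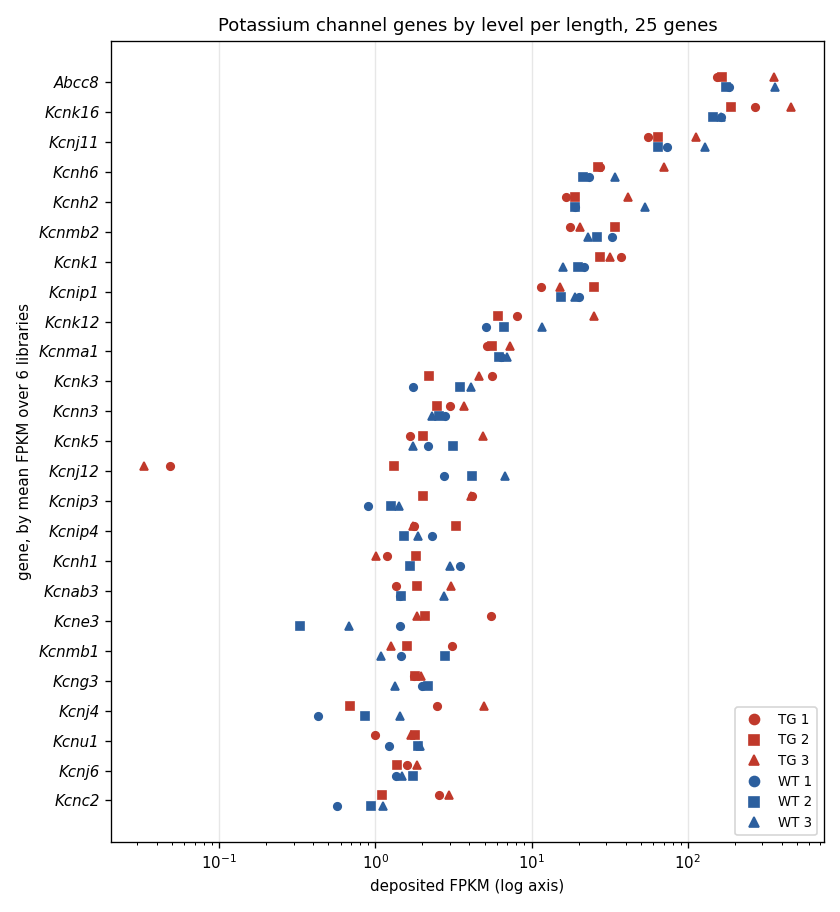
Deposited FPKM (log axis) of 25 potassium channel genes in order of their mean over 6 libraries, TG in red and WT in blue, 1 point per library. Abcc8 and Kcnk16 lead with means of 232 and 232 FPKM, and Kcnj12 is the gene whose TG points lie farthest below its WT points.

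All members together held 0.215%, 0.187% and 0.371% of counts in the TG libraries, against 0.191%, 0.180% and 0.314% in the WT libraries. The share thus differed more between the tables than between the genotypes. Abcc8 alone gave 39.6%, 42.0% and 48.3% of the members' summed CPM, a share of reads not corrected for length, in the TG libraries and 46.1%, 46.9% and 55.6% in the WT libraries. Without Abcc8, the sum was 1220, 1182 and 1717 CPM in the TG libraries and 1120, 1035 and 1289 CPM in the WT libraries; within each table, every TG library was above its WT libraries.

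To ask which channels differ between the genotypes, counts of all genes were fitted with edgeR's quasi-likelihood test, with the table as a term. Of the 88 members, 62 passed the low-count filter, and the other 26 had at most 31 counts in any library. None of the 62 members passed an adjusted p of 0.05, and neither did any of the 16072 genes tested (0% called). The smallest adjusted p in edgeR was 0.199, among the members and among all genes, and limma-voom also called 0 genes. Log2 fold changes below are TG over WT, with the standard error (SE) derived from the test. At an unadjusted p under 0.05, edgeR had 15 members higher in TG, against a background of 9.32% of all genes tested, and 4 lower, against 4.81%; these are 24.2% and 6.45% of the members tested. The 15 were Kcna2, Kcnc2, Kcne3, Kcne4, Kcnh4, Kcnh6, Kcnip2, Kcnip3, Kcnj2, Kcnj4, Kcnj5, Kcnk1, Kcnk16, Kcnn2 and Kcns3, and the 4 were Kcnd1, Kcnh1, Kcnh5 and Kcnj12. At a log2 fold change of 1 or more there were 11 members, against 6.42% of all genes, and at -1 or less there were 5, against 1.52%. The median log2 fold change was 0.21 over the members tested and -0.01 over all genes tested, and 42 of 62 members lay above 0, where 48.1% of all genes did.

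The calls depend on the test and on TG 2. DESeq2 called 10 members at an adjusted p under 0.05, all higher in TG, against 3.83% of all genes higher and 0.846% lower. Without the low-count filter, edgeR called 14 of 88 members higher (background 4.37%) and 4 lower (background 1.25%). With TG 2 left out, edgeR called 13 members higher (background 8.82%) and 5 lower (background 4.39%), and those lower included Kcnd1, Kcnh1, Kcnh5 and Kcnj12. In the first table alone, edgeR called 0 of 60 members and 0 of all genes, of which 688 lay higher and 182 lower at an unadjusted p below 0.05. With WT 1 left out it called 0 of 66 members and 0 of all genes, with 1340 higher and 400 lower at that level. Measured against the WT libraries of its own table, TG 1 had 16 members at least 1 log2 unit above and 6 below. TG 3 had 21 above and 6 below, and TG 2 had 4 above and 5 below. In TG 1, TG 2 and TG 3, 35.5%, 14.5% and 43.5% of members lay this far off in either direction. Of all genes tested, 12.6%, 2.93% and 14.995% did, with 1446, 319 and 1777 genes above and 584, 152 and 633 below. In each TG library the members thus spread more widely than all genes tested. The median difference of the members was 0.31 in TG 1, 0.03 in TG 2 and 0.33 in TG 3, where that of all genes tested was -0.01 in each. TG 2 was therefore the library in which the members, like all genes tested, lay closest to WT, as the plot of single TG libraries shows. The 2 tables, which share no library, gave like pictures: the TG-minus-WT differences of the 62 members correlated with r = 0.847 (across genes, as a description), and 72.6% had the same sign, against r = 0.649 and 70.2% over all genes tested.

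**Figure D2:**
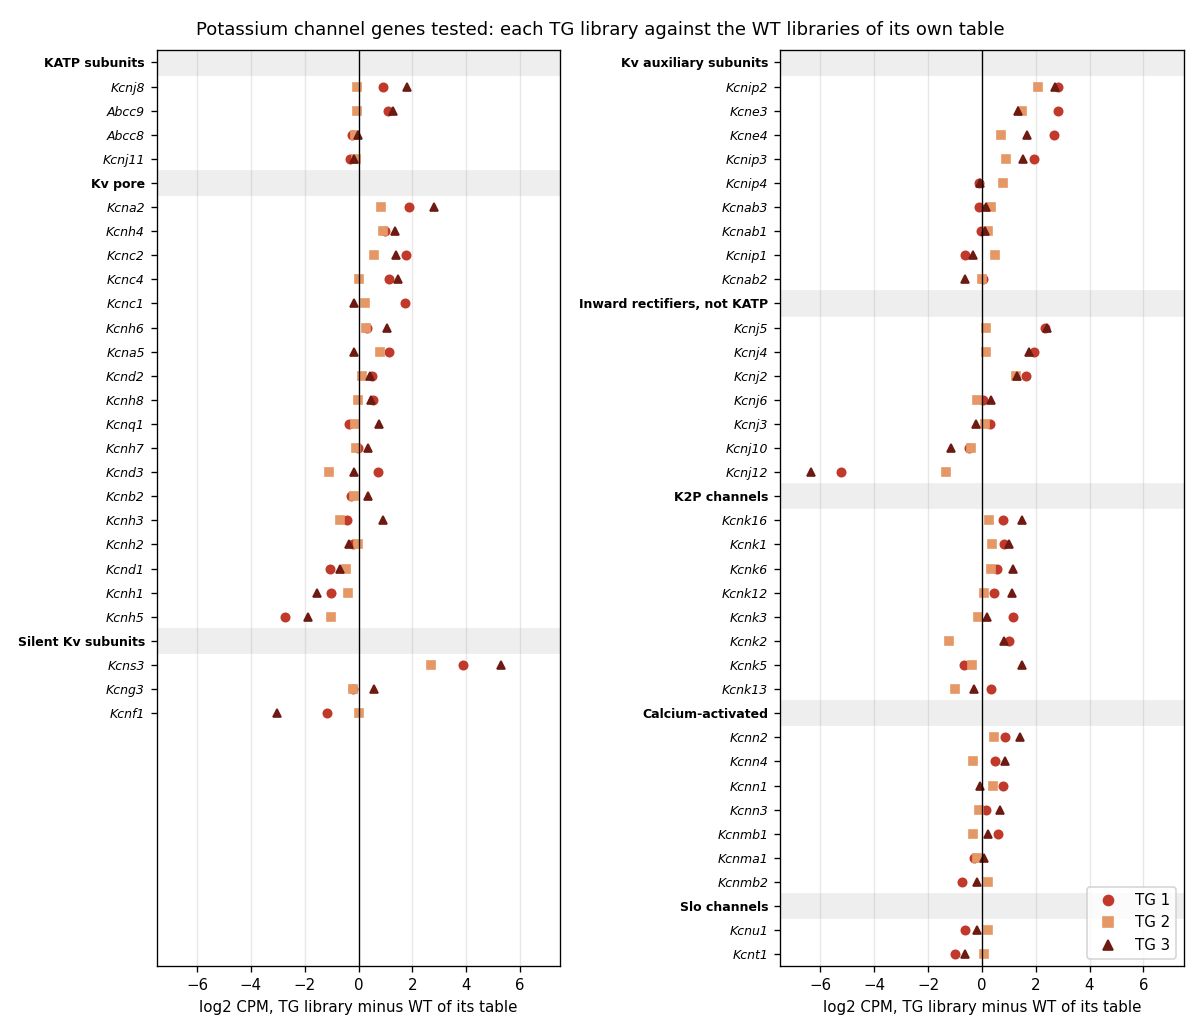
Difference in log2 CPM between each TG library and the WT libraries of its own table for 58 of the 62 potassium channel genes tested, grouped by role and sorted within each group, 1 symbol per TG library. TG 1 and TG 3 lie at 1 or more in 16 and 21 genes, and TG 2 in 4. Of all 16072 genes tested, 1446 in TG 1, 1777 in TG 3 and 319 in TG 2 do.

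**Figure D3:**
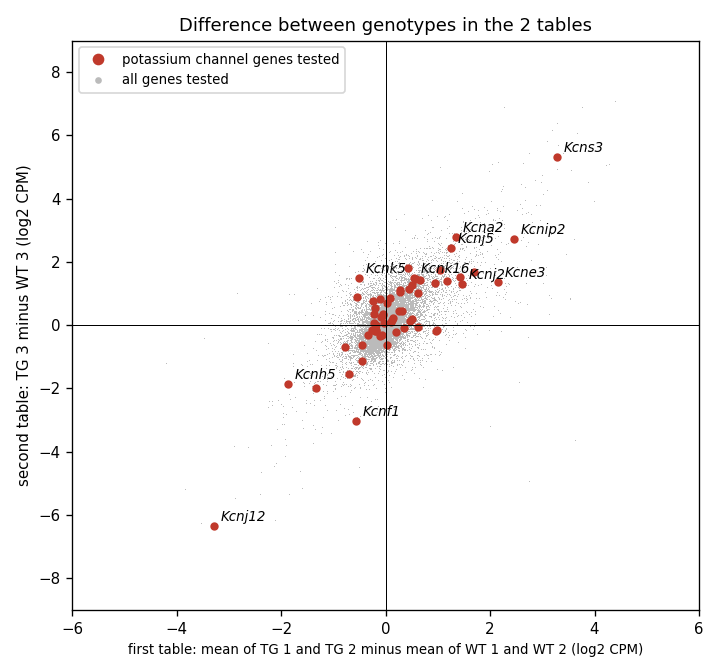
TG minus WT difference in log2 CPM in the first table (x axis, 2 libraries per genotype) against the second table (y axis, 1 library per genotype), potassium channel genes in red and all genes tested in grey. The members spread along the diagonal (r = 0.847), from Kcnj12 at the lower left to Kcns3 at the upper right.

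In these bulk samples, fewer cells of a type and less RNA per cell cannot be told apart. The levels of cell-type markers are given for that reason, and the lists did not all follow the members. Of 9 beta-cell markers, Slc2a2, Mafa, Pdx1 and Ucn3 were lower in every TG library than in every WT library (background 6.45% of all genes tested). The summed level is given above. Of 6 delta- and PP-cell markers, Ppy, Pyy and Rbp4 were above all WT libraries (background 6.96%). The list summed to 26243, 13223 and 36306 CPM in the TG libraries and to 8388, 9567 and 8356 CPM in the WT libraries. Ppy alone had 13490, 8228 and 20183 CPM in TG and 4801, 4684 and 3024 CPM in WT, and Sst overlapped between the genotypes. The 7 alpha-cell markers, of which Ttr was above all WT libraries, summed to 47213, 29261 and 22177 CPM in TG and 18327, 26909 and 25245 CPM in WT. Gcg alone had 45302, 27626 and 20739 CPM in TG and 17329, 25801 and 24127 CPM in WT. The 9 duct-cell markers, of which Krt7, Muc1, Spp1 and Tspan8 were above all WT libraries (background 6.96%), summed to 2276, 1714 and 1787 CPM in TG and 1285, 954 and 871 CPM in WT. None of the genes on these 4 lists was at 0 in any library. The part of these cell types in the members' differences was not tested.

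Both subunits of the beta-cell KATP channel, neighbours on chromosome 7 (chr7:46098725-46099897 and chr7:46104523-46180033, 4.625 kb apart), were close between the genotypes. Kcnj11 had 68.1, 78.5 and 121 CPM in the TG libraries, against 91, 78.7 and 137 CPM in the WT libraries. Its log2 fold change was -0.20 (SE 0.13) with an edgeR adjusted p of 0.522. Abcc8 had 799.8, 855 and 1606 CPM in the TG libraries, against 959, 914 and 1613 CPM in the WT libraries, and its log2 fold change was -0.12 (SE 0.17) (edgeR adjusted p = 0.778). For both genes both tables had TG below WT, but the tables differed by more than the genotypes. The FPKM of Kcnj11 relative to Abcc8 was 0.359, 0.387 and 0.317 in the TG libraries and 0.400, 0.364 and 0.360 in the WT libraries, so the ratio of the subunits overlapped between the genotypes.

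The KATP subunits best known from blood vessels and muscle were low and less even. Kcnj8, the Kir6.1 pore, had 3.51, 1.71 and 4.48 CPM in the TG libraries, against 1.51, 2.11 and 1.18 CPM in the WT libraries. Abcc9, which encodes SUR2 and lies 16.247 kb from Kcnj8 on chromosome 6, had 7.05, 3.13 and 6.63 CPM in the TG libraries, against 2.43, 4.39 and 2.67 CPM in the WT libraries. Both genes were above all WT libraries in TG 1 and TG 3 and inside the WT range in TG 2. The log2 fold changes were 0.98 (SE 0.44) for Kcnj8 and 0.82 (SE 0.41) for Abcc9, with edgeR adjusted p of 0.373 and 0.414. The 12 pericyte and stellate markers, cells in which this channel is known, summed to 187, 36.9 and 153 CPM in the TG libraries and to 28.9, 76.6 and 85.0 CPM in the WT libraries, with none at 0 in any library; their part in the values of Kcnj8 and Abcc9 was not tested.

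**Figure D4:**
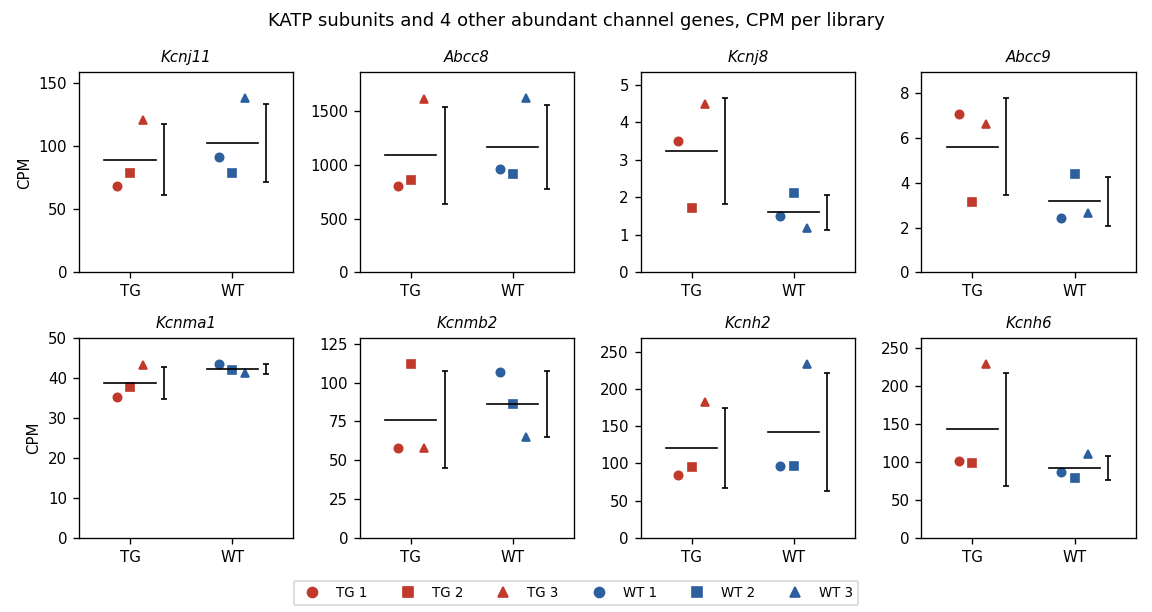
CPM per library of the 4 KATP subunits and of 4 other abundant channel genes, TG left in red and WT right in blue, with the mean (line) and SD (bar, n = 3). Every gene shown overlaps between the genotypes, and TG 3 and WT 3 lie highest in Kcnj11, Abcc8 and Kcnh2.

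K2P channels, which leak potassium at all voltages, held the most abundant gene with no overlap between the genotypes. Kcnk16 (chr14:20262756-20269162) had 248, 173 and 369 CPM in the TG libraries, against 151, 134 and 130.5 CPM in the WT libraries. Every TG library was above every WT library, with a log2 fold change of 0.87 (SE 0.25). The adjusted p was 0.238 in edgeR, 0.0221 in DESeq2 and 0.0142 in edgeR without TG 2. Since TG 2 was the lowest TG library here, leaving it out widens the difference and is no separate evidence. Kcnk16 was called under only 3 of 14 alternatives to the main fit, and its adjusted p over them reached 0.943. Kcnk1 (TWIK-1, a weakly rectifying leak channel) had 89.5, 65.9 and 67.2 CPM in the TG libraries, against 52.2, 48 and 33 CPM in the WT libraries. It too had no overlap, with a log2 fold change of 0.76 (SE 0.17) and an edgeR adjusted p of 0.199. Across all 62 tested members, 12 had every TG library above every WT library (background 6.96%) and 3 had every TG library below (background 6.45%).

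Kcnk12, which encodes the poorly conducting channel THIK-2, had 16.4, 12.4 and 44.5 CPM in the TG libraries and 10.4, 13.6 and 20.3 CPM in the WT libraries (log2 fold change 0.56 (SE 0.24), edgeR adjusted p = 0.363). TG 3 was the highest library, and TG 1 and TG 2 lay inside the WT range. Kcnk3, the acid-sensitive channel TASK-1, had 23.2, 9.2 and 16.7 CPM in the TG libraries and 7.28, 14.5 and 14.7 CPM in the WT libraries, with a log2 fold change of 0.44 (SE 0.40); only TG 1 and TG 3 were above all WT libraries. Kcnk5 (TASK-2, gated by alkaline pH), which lies 80.973 kb from Kcnk16 on chromosome 14, had 5.83, 7.06 and 15.1 CPM in the TG libraries and 7.71, 11.1 and 5.29 CPM in the WT libraries. Here the 2 tables went opposite ways. Of 8 K2P genes tested out of 13, 7 had a fitted level higher in TG (background 48.1% of all genes tested) and 1 lower. The median log2 fold change was 0.50, and Kcnk16 and Kcnk1 were higher at an unadjusted edgeR p under 0.05 (background 9.32%). The genes of this role not given above, Kcnk6 (TWIK-2), Kcnk2 (the stretch-sensitive TREK-1) and Kcnk13 (THIK-1), had log2 fold changes of 0.70, 0.44 and -0.27, each with libraries that overlapped and a mean of under 1 FPKM.

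Among Kv pore genes, the delayed rectifier Kcnb2 (Kv2.2) had 14.5, 15.8 and 14.4 CPM in the TG libraries and 20.9, 14.8 and 11.1 CPM in the WT libraries. The genotypes overlapped, with a log2 fold change of -0.04 (SE 0.22). Kcnq1, the pore of the slow cardiac delayed rectifier, was low in both genotypes, at 0.59, 0.714 and 1.12 CPM in the TG libraries and 0.755, 0.835 and 0.612 CPM in the WT libraries, and its log2 fold change was 0.10 (SE 0.39).

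The ether-a-go-go related genes were the most abundant Kv genes per length. Kcnh2 (ERG1) had 84.5, 95.4 and 183 CPM in the TG libraries, against 96.2, 96.3 and 234 CPM in the WT libraries, with a log2 fold change of -0.18 (SE 0.13). Kcnh6 (ERG2) had 102, 99 and 229 CPM in the TG libraries, against 86.4, 79.1 and 109.9 CPM in the WT libraries. Its TG libraries were above the WT libraries of their own tables, although TG 1 and TG 2 lay below WT 3. The log2 fold change of Kcnh6 was 0.54 (SE 0.19), with an edgeR adjusted p of 0.285.

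Kcna2 and Kcnc2 were higher in every TG library than in every WT library. Kcna2, a Shaker-type channel (Kv1.2) known from axons, had 28.4, 13.8 and 31.2 CPM in the TG libraries, against 9.71, 6.11 and 4.42 CPM in the WT libraries. Its log2 fold change was 1.87 (SE 0.42), with an edgeR adjusted p of 0.199 and a DESeq2 adjusted p of 5.01e-04. Kcnc2, the fast channel Kv3.2, had 16.5, 7.14 and 16.7 CPM in the TG libraries, against 3.72, 6.07 and 6.3 CPM in the WT libraries, with a log2 fold change of 1.32 (SE 0.36) (edgeR adjusted p = 0.234). TG 2 was the lowest TG library in both genes. Kcnh4 (ELK1) was also without overlap, but at 0.556, 0.515 and 0.746 CPM in the TG libraries and 0.216, 0.22 and 0.219 CPM in the WT libraries. These values rest on only 16, 13 and 18 counts in TG and 4, 5 and 5 counts in WT. Its log2 fold change was 1.44 (SE 0.41) (edgeR adjusted p = 0.239).

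Lower values in TG were seen in other Kv genes. Kcnd1 (Kv4.1, an A-type channel that inactivates quickly) had 3.23, 5.0 and 5.14 CPM in the TG libraries, against 7.17, 6.72 and 8.44 CPM in the WT libraries. All TG libraries were below all WT libraries, and the log2 fold change was -0.74 (SE 0.25) (edgeR adjusted p = 0.268).

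The ether-a-go-go genes Kcnh1 (EAG1) and Kcnh5 (EAG2) overlapped through TG 2. Kcnh1 had 9.17, 14 and 6.8 CPM in the TG libraries, against 27, 12.9 and 19.9 CPM in the WT libraries, with a log2 fold change of -1.03 (SE 0.34) (edgeR adjusted p = 0.272). Kcnh5 had 0.0694, 0.515 and 0.0414 CPM in the TG libraries and 1.19, 1.14 and 0.481 CPM in the WT libraries, a fitted log2 fold change of -2.25 (SE 0.69) that rests on 2, 13 and 1 counts in TG and 22, 26 and 11 counts in WT. Over the role, 22 of 29 Kv pore genes were tested, and their median log2 fold change was 0.09. Of these, 14 had a fitted level higher in TG (background 48.1%) and 8 lower. At an unadjusted edgeR p under 0.05, 4 were higher (background 9.32%) and 3 lower (background 4.81%). Of the tested genes of this role, Kcna5, Kcnc1, Kcnc4, Kcnd2, Kcnd3, Kcnh3, Kcnh7 and Kcnh8 had log2 fold changes between -0.06 for Kcnh3 and 0.85 for Kcnc4. Kcnd2 (Kv4.2, a main partner of KChIP proteins) had 1.01, 0.753 and 0.994 CPM in the TG libraries and 0.647, 0.703 and 0.699 CPM in the WT libraries; its libraries did not overlap, but the gap between TG 2 and WT 2 was small and the edgeR adjusted p was 0.603.

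Silent Kv subunits form no channel alone but modify Kv2 channels, and 3 of 7 were tested. Kcns3 (Kv9.3, chr12:11090202-11150842) had 6.63, 2.82 and 8.29 CPM in the TG libraries, against 0.701, 0.132 and 0.0874 CPM in the WT libraries. In counts these were 191, 71 and 200 in TG and 13, 3 and 2 in WT, so that the gene was close to the floor of 3 counts in WT 2 and WT 3 and clearly above it in each TG library. The log2 fold change of 4.30 (SE 0.79) was the largest among the members tested, with an edgeR adjusted p of 0.199 and a DESeq2 adjusted p of 4.67e-06. Kcnf1 (Kv5.1) had 0.521, 1.35 and 0.166 CPM in the TG libraries and 1.29, 1.36 and 2.23 CPM in the WT libraries, with TG 2 inside the WT range and TG 1 and TG 3 below it; its log2 fold change was -1.36 (SE 0.70) (edgeR adjusted p = 0.425). The other gene tested in this role, Kcng3, which also modifies Kv2 channels, had a log2 fold change of 0.04.

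Auxiliary subunits of Kv channels held several of the members that stood apart. KChIP proteins are calcium-binding partners of Kv4 channels. Kcnip2 (chr19:45791839-45816061) had 3.58, 2.06 and 3.02 CPM in the TG libraries, against 0.431, 0.352 and 0.35 CPM in the WT libraries. Every TG library was several times above every WT library, and the log2 fold change was 2.93 (SE 0.38), with an edgeR adjusted p of 0.199 and a DESeq2 adjusted p of 9.17e-06. Kcnip3, whose product also acts as a calcium-dependent transcriptional repressor (DREAM), had 15.3, 7.53 and 13.3 CPM in the TG libraries, against 3.34, 4.66 and 4.55 CPM in the WT libraries. It had no overlap, with TG 2 the lowest TG library and a log2 fold change of 1.52 (SE 0.32) (edgeR adjusted p = 0.199).

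The most abundant KChIP gene, Kcnip1, overlapped between the genotypes, at 74.2, 162 and 85.6 CPM in the TG libraries, against 132, 99.6 and 107 CPM in the WT libraries. TG 2 was the highest library and TG 1 the lowest, and the log2 fold change was -0.08 (SE 0.29). Kcne3, a single-pass subunit that keeps Kcnq1 channels open, had 10.2, 3.89 and 2.98 CPM in the TG libraries and 2.7, 0.615 and 1.09 CPM in the WT libraries, with no overlap, TG 3 just above WT 1, and a log2 fold change of 1.90 (SE 0.61) (edgeR adjusted p = 0.261). In this role 9 of 11 genes were tested, 7 with a fitted level higher in TG (background 48.1%) and 2 lower. The median log2 fold change was 0.24. At an unadjusted edgeR p under 0.05, 4 were higher (Kcne3, Kcne4, Kcnip2 and Kcnip3, background 9.32%) and none lower (background 4.81%). Kcne4, a subunit that inhibits several Kv channels, had 9.93, 2.42 and 2.65 CPM in the TG libraries and 0.755, 2.68 and 0.743 CPM in the WT libraries, with TG 2 inside the WT range. Kcnip4 and the beta subunits Kcnab1, Kcnab2 and Kcnab3 had log2 fold changes of 0.24, 0.12, -0.22 and 0.15.

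**Figure D5:**
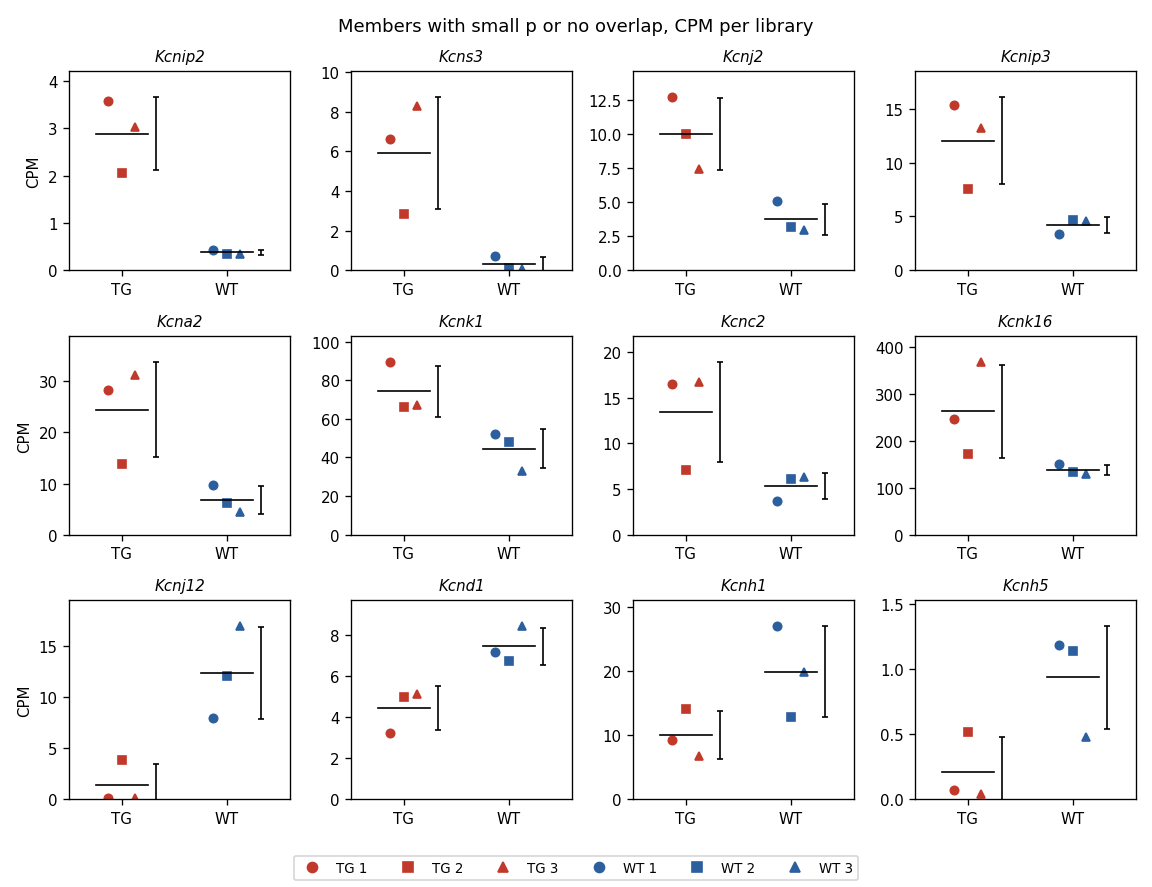
CPM per library of 8 members higher in every TG than in every WT library (Kcnip2 to Kcnk16), of Kcnj12 and Kcnd1, lower in every TG library, and of Kcnh1 and Kcnh5, TG left in red and WT right in blue, with the mean (line) and SD (bar, n = 3, cut at 0 where it would reach below). In each of the first 8 panels except Kcnj2, TG 2 is the lowest TG library; in Kcnj12, Kcnh1 and Kcnh5 it is the highest.

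Inward rectifiers other than KATP pass potassium best at negative voltages. Kcnj2 (Kir2.1) had 12.7, 9.99 and 7.42 CPM in the TG libraries, against 5.07, 3.21 and 2.93 CPM in the WT libraries. The groups did not overlap, and the 3 TG libraries lay 1.62, 1.28 and 1.30 log2 units above the WT libraries of their own tables. Its log2 fold change was 1.42 (SE 0.26), with an edgeR adjusted p of 0.199 and a DESeq2 adjusted p of 2.25e-04.

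Kcnj12 (Kir2.2), from the same subfamily, went the other way. Kcnj12 (chr11:61022564-61071131) had 0.139, 3.81 and 0.0829 CPM in the TG libraries, against 7.98, 12 and 16.9 CPM in the WT libraries. In counts these were 4, 96 and 2 in the TG libraries and 148, 274 and 387 in the WT libraries, so TG 1 and TG 3 were near the floor of 3 counts while TG 2 was below the WT range but far from 0. The log2 fold change was -3.41 (SE 1.24) with all libraries (edgeR adjusted p = 0.298), -6.76 without TG 2 (edgeR adjusted p = 9.03e-04) and -2.35 in the first table alone. Since TG 2 was the highest TG library, leaving it out widens the difference and is no separate evidence. Kcnj12 was called under only 2 of 14 alternatives to the main fit, and its adjusted p over them reached 0.965. Mafa, the beta-cell transcription factor, also had its highest TG value in TG 2, at 3.72, 249 and 18.1 CPM in the TG libraries. In the WT libraries Mafa had 406, 486 and 674 CPM. This was not particular to Mafa, since Ucn3, Slc2a2, Ins1 and Ins2 also had their highest TG value in TG 2, while Pdx1 had its highest in TG 3. Whether Mafa has a part in the level of Kcnj12 was not tested.

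The promoter of Kcnj12 is shown only as a description of letters and cannot answer this question. It is the 250 bases before the start given by RefSeq (GRCm38.p6, chr11:61065554-61065803, plus strand), which lies inside the gene span given above. Capitals mark TGCTGA, a part of the MAF recognition element and not the whole element, searched on both strands (TCAGCA on the other strand).
Kcnj12: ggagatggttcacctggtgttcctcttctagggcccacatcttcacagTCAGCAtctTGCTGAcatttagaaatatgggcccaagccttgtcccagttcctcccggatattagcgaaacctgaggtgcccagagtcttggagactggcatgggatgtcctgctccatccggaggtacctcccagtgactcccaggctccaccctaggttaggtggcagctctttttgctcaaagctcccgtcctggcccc
These letters occur at least once in 16.1% of 32851 promoters of the same length and at least 2 times in 1.66%. RefSeq gave 88 promoters for 66 of the members, and 9 of them, from 8 genes (Kcnab2, Kcnc2, Kcnh6, Kcnip1, Kcnip4, Kcnj12, Kcnk2 and Kcnk4), held them. Kcnk4 was not tested, and the fitted levels of the other 7 lay on both sides, with log2 fold changes of -3.41 for Kcnj12, -0.08 for Kcnip1, 0.54 for Kcnh6 and 1.32 for Kcnc2. The window and the motif were chosen after the values were seen, and a match is no evidence of binding.

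The G-protein-gated channels were low. Kcnj6 (GIRK2), the most abundant of them, had 9.69, 8.33 and 9.78 CPM in the TG libraries and 8.25, 10.5 and 7.78 CPM in the WT libraries and a log2 fold change of 0.07 (SE 0.21). Kcnj5 (GIRK4) had 1.53, 0.238 and 3.6 CPM in the TG libraries and 0.377, 0.0879 and 0.568 CPM in the WT libraries; TG 1 and TG 3 were above all WT libraries and TG 2 was inside their range, and the log2 fold change was 2.27 (SE 0.78) (edgeR adjusted p = 0.278). Kcnj10 (Kir4.1, a glial channel) had 0.521, 0.555 and 0.249 CPM in the TG libraries and 0.431, 1.36 and 0.699 CPM in the WT libraries and a log2 fold change of -0.96 (SE 0.51), beside 8 Schwann and glial markers that summed to 29, 18.5 and 36.2 CPM in TG and 14.1, 13.4 and 23.5 CPM in WT, with S100b at 0 in at least 1 library. The part of glia in the Kcnj10 values was not tested. Of 12 genes in this role 7 were tested, 5 with a fitted level higher in TG (background 48.1%) and 2 lower. The median log2 fold change was 0.07. At an unadjusted edgeR p under 0.05, 3 were higher (background 9.32%) and 1 lower (background 4.81%). Kcnj4 (Kir2.3) was among the 3, at 5.56, 1.55 and 9.78 CPM in the TG libraries and 0.971, 1.93 and 2.8 CPM in the WT libraries, with TG 2 inside the WT range and a log2 fold change of 1.47 (SE 0.52). Kcnj3 (GIRK1) had a log2 fold change of 0.04.

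Calcium-activated channels repolarise the cell when calcium has entered. Kcnma1, the pore of the big-conductance BK channel, had 35.4, 37.9 and 43.2 CPM in the TG libraries, against 43.6, 42.1 and 41.2 CPM in the WT libraries. TG 3 lay inside the WT range and TG 1 and TG 2 below it, with a log2 fold change of -0.13 (SE 0.13) (edgeR adjusted p = 0.695). Kcnmb2, the subunit that makes BK channels inactivate, had 57.9, 112 and 58.1 CPM in the TG libraries, against 107, 86.4 and 65.1 CPM in the WT libraries; TG 2 was the highest library and TG 1 the lowest.

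Among the small-conductance channels, Kcnn2 (SK2) had no overlap, at 7.5, 5.59 and 10.7 CPM in the TG libraries and 3.77, 4.39 and 3.93 CPM in the WT libraries. Its log2 fold change was 0.94 (SE 0.27), with an edgeR adjusted p of 0.239; like the other genes outside the naming rule, it was named after its values were seen. Kcnn4, the intermediate-conductance channel, had 1.74, 0.952 and 3.65 CPM in the TG libraries and 1.08, 1.36 and 1.97 CPM in the WT libraries and a log2 fold change of 0.41 (SE 0.36). Of 9 genes in the role 7 were tested, 5 with a fitted level higher (background 48.1%) and 2 lower, and the median log2 fold change was 0.25. Kcnn3 (SK3), Kcnn1 (SK1) and the BK subunit gene Kcnmb1 had log2 fold changes of 0.25, 0.41 and 0.17. The sodium-activated and pH-gated Slo channels had 2 of 3 genes tested, Kcnt1 and Kcnu1, both with a fitted level lower in TG (-0.69 and -0.18) and neither with an unadjusted p under 0.05.

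Of the 26 members not tested for low counts, 3 had 3 or fewer counts in every library. In 4 others every TG library was above every WT library, and in none below. Of all 13653 untested genes with any count, 3.37% were above and 2.87% below in this way. Of the 6126 with over 3 counts in at least 1 library, 6.07% were above and 4.16% below; 23 members were among these genes. The 4 are named after their values were seen. Kcnmb4, a BK subunit known from neurons, had 31, 4 and 22 counts in TG and 1, 1 and 1 in WT. Kcnk10 (TREK-2) had 15, 7 and 8 counts in TG and 1, 2 and 2 in WT, and Kcna3 (Kv1.3, known from lymphocytes) had 15, 8 and 21 in TG and 2, 7 and 3 in WT. Kcnt2, a sodium-activated channel, had 5, 5 and 5 counts in TG and 2, 0 and 1 in WT, which is near the floor of 3 counts.

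Reads of overlapping genes bear on some members, since the strand setting of the counting is not given in the sources used here. Exons of 27 members overlap another gene on the other strand, and those of 2 overlap a gene on the same strand. Among the genes with values above these are Abcc9, Kcnq1 (with Kcnq1ot1), Kcnh3 (with Mcrs1), Kcne3, Kcnip4, Kcnab1, Kcnab2, Kcnab3, Kcnj3, Kcnj6, Kcnk1, Kcnk2, Kcnk3, Kcnma1, Kcnmb4, Kcnn1, Kcnn2 and Kcnt2, so their values are uncertain to that extent.

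The TG effect was also compared between the tables, as the interaction of table and genotype in edgeR. At an unadjusted p under 0.05, 4 members differed (background 2.28%): Kcnk5, Kcnh6 and Kcnh3, where TG 3 lay higher above its WT library than the other TG libraries did, and Kcnf1, where it lay lower. None passed after adjustment.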

How the data were processed

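Islet RNA was sequenced in 3 TG and 3 WT libraries. Per the submitters' processing notes, CASAVA 1.8 and HISAT2 were used with GRCm38 (mm10). Which program counted reads, with which strand setting and annotation release, is not given in the sources used here. The deposited raw counts are whole numbers for 47643 genes in each of 2 tables, of which 29725 had a count in any library. The deposited FPKM were scaled by the authors by gene length, per the file headers, separately in each table; 86 members were in the first annotated table and 84 in the second. Group comes from the genotype label; libraries were numbered in accession order.

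The counts were fitted in edgeR 4.0.16 under R 4.3.3 (filterByExpr by genotype, TMM, quasi-likelihood F-test, table and genotype as terms, Benjamini-Hochberg over 16072 genes, threshold 0.05), after the script was tested on simulated data. The SE was obtained as log2 fold change over the root of F. Differences of single libraries used log2 of CPM plus a small constant. Alternatives were DESeq2 1.42.0, limma 3.58.1 (voom), RLE factors, no filter, the bias-adjusted form of edgeR, no table term, the first table alone, hormone genes left out, each library left out, and FPKM within tables. Named members were the KATP subunits, 12 known from beta cells, the 10 with the highest FPKM, per direction the 8 with the smallest p and up to 6 without overlap, and the 3 with the smallest interaction p; others are said to be chosen after their values were seen. Counts and medians are over all members, of which 4 are not reported here singly. Members, lists and rules were chosen with earlier results of these data known. A count floor of 3 covers counting error only. No pair of libraries agreed within sampling noise; the closest, TG 2 and WT 1, differed with a chi-square per degree of freedom of 31.6 across 13065 genes. Of the marker lists not described with the results, acinar genes summed to 3385, 4557 and 277 CPM in TG and 2966, 6593 and 128 CPM in WT. Endothelial genes summed to 291, 267 and 486 CPM in TG and 263, 369 and 221 CPM in WT. Neuronal genes summed to 227, 267 and 206 CPM in TG and 287, 249 and 253 CPM in WT, and myeloid genes to 76.8, 39.1 and 43.1 CPM in TG and 34.6, 111 and 36.7 CPM in WT. Lymphoid genes summed to 1.32, 3.25 and 4.68 CPM in TG and 5.82, 5.14 and 8.48 CPM in WT.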

Additional observations from a re-analysis of the deposited data

Results flagged for a closer look

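In 4 members the TG effect differed between the 2 tables at an unadjusted p under 0.05 of the interaction of table and genotype in edgeR, against a background of 2.28% of all genes tested. No gene passed after adjustment, and the adjusted p was 0.9999 for each. With 1 library per genotype in the second table, the spread in this test comes from the libraries of the first. Sex-linked transcripts also followed the table, so such a difference cannot be told apart from 1 of sex. For Kcnk5 the log2 effect was higher in the second table by 2.06, with the 3 TG libraries at -0.65, -0.38 and 1.49 log2 units from the WT libraries of their own table. For Kcnh6 it was higher by 0.78, with TG libraries at 0.30, 0.26 and 1.06. For Kcnh3 (ELK2, a Kv pore), at 2.74, 2.3 and 8.95 CPM in the TG libraries and 3.94, 3.56 and 4.72 CPM in the WT libraries, it was higher by 1.49. For Kcnf1 the effect in the second table was lower, with a difference of -3.19, and TG 3 had 4 counts.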

How the results depend on the processing

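The count of called members was 0 with all libraries in edgeR. It was 10 of 62 in DESeq2 and 18 of 88 without a low-count filter, and 0 with limma-voom, RLE factors, the bias-adjusted form, no table term, the first table alone or hormone genes left out; leaving out each library gave 0 to 18, the 18 being without TG 2. Over all genes the counts were 0 in edgeR, 752 in DESeq2 and 1672 without a filter, and 0 to 2188 with each library left out, again highest without TG 2. Without TG 2, each table holds a lone TG library, assumed to vary like the others. Members with every TG library above every WT library numbered 12, and 12 to 22 with each library left out (22 without TG 2, background 18%, and 19 without WT 2, background 10.7%), an alternative chosen after seeing the data. Within tables, 14 members were above by FPKM (background 13.1%) and 7 below (background 13.2%), and CPM gave the same counts. Those below every WT library numbered 3, and 3 to 8 with each library left out (8 without TG 2, background 16.1%, 8 without TG 3, background 11.9%, 7 without WT 1, background 10.6%, and 5 without WT 3, background 11.4%). The cause was not tested.

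Of 34 named members, 14 were called under at least 1 alternative, 8 had a change of sign and 12 had neither. No member was called under more than 3 of the 14 alternatives. The genes whose sign turned are given here. Kcnh3 was 0.077 with limma-voom and 0.19 without a table term. In the first table alone, Kcnip1 was 0.031, Kcnj6 -0.061, Kcnk5 -0.54 and Kcnq1 -0.29. With each library left out, their log2 fold changes ranged over -0.24 to 0.19 for Kcnb2, -0.57 to 0.18 for Kcnh3, -0.51 to 0.15 for Kcnip1, -0.066 to 0.22 for Kcnj6, -0.055 to 0.72 for Kcnk3, -0.55 to 0.47 for Kcnk5, -0.50 to 0.054 for Kcnmb2 and -0.29 to 0.29 for Kcnq1. No paired analysis was possible because the replicate numbers were given in accession order and the labels share no numbers between genotypes. Depth limits the 26 untested members and, of the named genes, Kcnh5, Kcnj5, Kcnj12 and Kcns3, which had 3 or fewer counts in at least 1 library.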

Other observations

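None of the genes that work beside the channels passed the adjusted threshold in edgeR. Of all genes tested, 48.1% had a fitted level higher in TG. At an unadjusted edgeR p under 0.05, 9.32% of all genes tested were higher and 4.81% lower. Of 14 partners of potassium channels outside the name rule, 11 were tested, 8 with a fitted level higher and 3 lower in TG, and Hcn4, a pacemaker channel, was the only 1 with an unadjusted edgeR p under 0.05 (log2 fold change 0.75 (SE 0.27)). Of 32 genes of beta-cell glucose sensing and excitation, 31 were tested, 16 with a fitted level higher and 15 lower. Of these, Scn3a (a sodium channel) and Cacnb3 (a calcium channel subunit) were higher with an unadjusted p under 0.05, at log2 fold changes of 1.09 (SE 0.24) and 0.66 (SE 0.25). Lower at that level were Slc2a2 (the glucose transporter GLUT2) at -1.62 (SE 0.49), Atp2a3 and Atp2a2 (calcium pumps of the endoplasmic reticulum) at -1.02 (SE 0.29) and -0.82 (SE 0.23), Glp1r (the GLP-1 receptor) at -0.87 (SE 0.20), Scn9a at -0.48 (SE 0.14), and the L-type calcium channels Cacna1d and Cacna1c at -0.34 (SE 0.13) and -0.32 (SE 0.13).

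Noncoding transcripts named after potassium channel genes are not members. Kcnq1ot1, the imprinted antisense RNA of the Kcnq1 locus, had 21.6, 25 and 18.5 CPM in the TG libraries and 23.8, 32.3 and 21.3 CPM in the WT libraries. Kcnmb4os2, antisense to Kcnmb4, had 22, 3 and 12 counts in TG and 4, 0 and 0 in WT, and without strand its reads and those of Kcnmb4 cannot be told apart.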
